A study of Mus musculus with 6 samples.

Results

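The genes described here encode the proteasome, the barrel-shaped protease that cuts proteins marked for destruction, together with its regulators and the subunits that immune signals or the thymus exchange into it. They were chosen by name: every measured gene whose symbol on the array begins with Psma to Psmg and a digit, and Psmb11, which the array files list under an older clone name. The rule took 45 genes, measured by 71 probes, of the 27597 genes and 41174 probes on the array. All 45 had a representative probe well above background on all 6 arrays, so none passed the filter on dim probes through 1 group alone. RNA was measured on 6 single-colour Agilent arrays, 3 of thymic and 3 of thyroid epithelial cells, both sorted alive from C57BL/6 mice with no genetic change or treatment named in the labels. The thymic cells were labelled as medullary and were sorted as Epcam+, CD45- and binding the lectin UEA1. The thyroid cells were sorted as Epcam+ and CD45-, with no lectin. A replicate is a pool of organs and not 1 animal: 6 thymi for thymic replicates 1 and 2, only 2 for thymic replicate 3, and 20 thyroids for every thyroid replicate. Age and sex are not given in the sources used here.

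The core particle, called 20S, is a stack of alpha and beta rings, and its proteolytic sites lie on the beta subunits Psmb5, Psmb6 and Psmb7. Interferon-gamma induces Psmb8, Psmb9 and Psmb10, which take the places of these subunits in newly built particles and give the immunoproteasome, known for making peptides that fit MHC class I. Cortical epithelial cells of the thymus make Psmb11, which takes the place of Psmb5 and Psmb8 in the thymoproteasome, needed there for a normal set of CD8 T cells. Medullary cells are the other epithelial type of the thymus, where maturing T cells meet antigens of many tissues. The 19S cap, built from Psmc ATPases and Psmd subunits, unfolds ubiquitin-tagged proteins, and the Psme activators are alternative caps.

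Values are log2 of the spot signal relative to the 75th percentile of the array, and differences are thymic minus thyroid. The 75th percentile itself lay between 475 and 805 signal units, no spot was saturated, and 65.4% to 81.0% of probes were well above background per array. The 3 thymic arrays and thyroid replicate 1 were on one slide and thyroid replicates 2 and 3 on another. Of markers for the labelled cells, 7 of 7 medullary genes tested were higher in thymic cells and 7 of 8 thyroid follicular genes in thyroid cells. Aire, the medullary regulator of tissue antigen expression, was 12.08 higher in thymic cells, and Tg, the thyroid hormone precursor, 10.78 lower. Markers of other cells were not absent. Of thymocyte and T cell genes, 14 of 16 were higher in thymic cells, with a summed linear level of 4.79 to 8.71 there and 2.04 to 2.14 in thyroid cells, as were 8 of 8 B cell genes (4.24 to 5.10 against 1.31 to 2.44) and 11 of 13 myeloid and dendritic genes (100.4 to 108.8 against 3.71 to 5.49). Ptprc, which encodes the CD45 excluded by the sort, was 4.05 higher in thymic cells. All 13 endothelial genes were higher in thyroid cells, with summed levels of 743 to 1052 against 5.56 to 6.16. That sum exceeded the 556 to 726 of the 8 follicular genes on the thyroid arrays. The 4 epithelial genes summed to 133 to 165 there and to 422 to 498 on the thymic arrays. Such sums also depend on the probes and on the number of genes listed. Blood cells carry immunoproteasome and endothelial cells respond to interferon, and the part of these cells in the differences below was not tested. In such pooled RNA, fewer cells of a type and less RNA per cell cannot be told apart.

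With the scaling used here, the proteasome differed little between the cell types apart from a few exchangeable or tissue-restricted members. Psmb11 was far higher in thymic cells, Psmb9 and Psmb10 were about 2-fold higher there, and Psma8, a testis-type alpha subunit, was higher in thyroid cells. Of the 45 genes, 8 were higher in thymic cells, and as many were higher in thyroid cells, at an adjusted p under 0.05 (limma, Benjamini-Hochberg over 21395 genes), and 29 did not pass. On the same arrays 69.8% of all genes passed, 39.3% higher in thymic and 30.5% in thyroid cells, so the share of proteasome genes that passed was smaller than that of all genes. Centring arrays on their median instead gave a split of all calls of 35.9% thymic, against 56.2% here. Only 4 members passed with a 2-fold or larger difference, against 43.1% of all genes: Psmb9, Psmb11 and the name match Psmc3ip in thymic cells, and Psma8 in thyroid cells. The median size of the difference was 0.20 over the members and 0.79 over all genes. The groups did not overlap for 24 members (10 thymic, 14 thyroid) and for 76.4% of all genes.

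**Figure D1:**
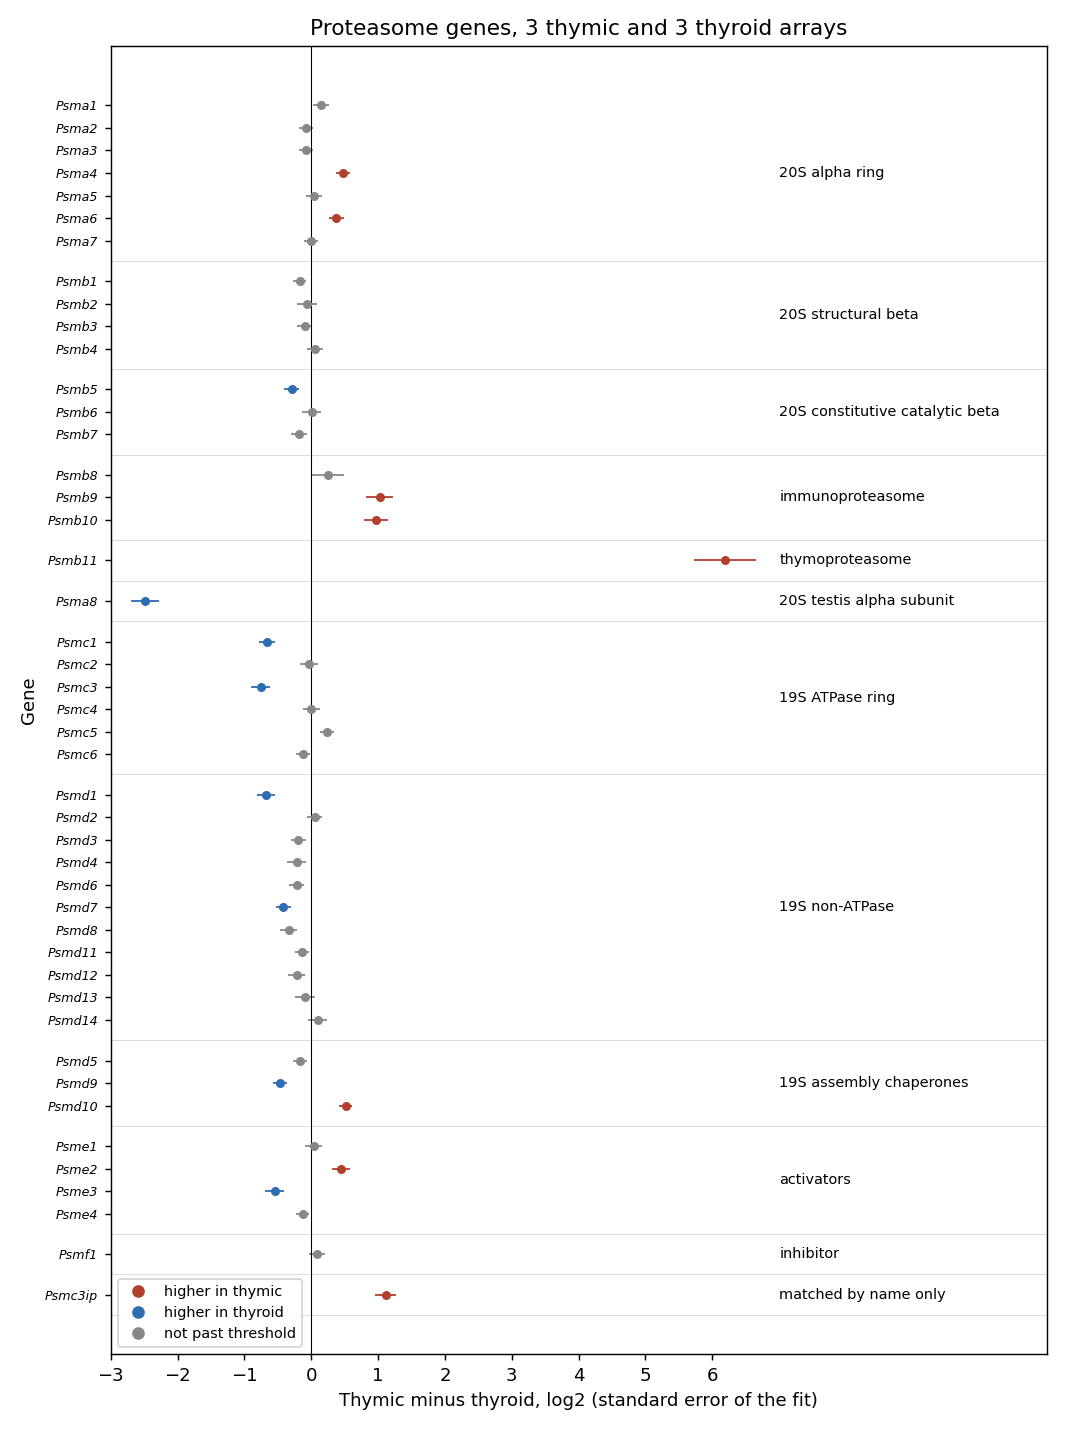
Difference between thymic and thyroid means on the log2 scale for each of the 45 genes, by family, with the standard error of the fit; colour gives the call at an adjusted p under 0.05 (limma). Most core and cap subunits sit within 0.5 of 0, while Psmb11 stands at 6.19 and Psma8 at -2.49. Under median centring all differences are 0.52 lower.

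Psmb11, the catalytic subunit of the thymoproteasome, read 0.70, 1.74 and 2.67 in thymic cells and -4.51, -4.27 and -4.67 in thyroid cells. Every thymic array was far above every thyroid array, and the thyroid readings were low but well above background on all 3. The difference was 6.19 ± 0.46 (SE; 72.8-fold, adjusted p 3.07e-05, limma), larger than that of 96.6% of all genes. With normexp background correction, run with an offset of 50 signal units added to every spot, the difference was 4.67 (25.5-fold). With median centring it was 5.66 (50.6-fold). A second probe read -3.63, -2.54 and -1.50 in thymic cells and was not above background in thyroid cells on any array. It gave at least 11.4-fold, set against the lowest signals called above background there. The thymic arrays themselves spread over 3.92-fold for Psmb11, the widest spread of any member within a group, lowest in replicate 1 and highest in replicate 3, the pool of 2 thymi. Prss16, a thymus-specific serine protease of cortical epithelium, read 2.18, 3.27 and 3.99 on the same arrays. Cxcl12, a chemokine on the same fixed list of cortical genes, read -0.02, 0.64 and 1.17. Aire stayed within 5.86 to 6.17 and Ccl25, another cortical gene, within 6.54 to 7.06. Of the 8 cortical genes listed, Psmb11 included, 5 were higher in thymic cells and 3 (Cxcl12, Dll4 and Kitl) in thyroid cells. The array values of Dll4, Il7, Kitl and Ly75 are not given here, so the order of Prss16 and Cxcl12 does not stand for the list. The part of cortical cells in the Psmb11 reading and in its spread was not tested.

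In the genome Psmb11 lies beside Psmb5, whose place its product takes: in RefSeq on GRCm38.p6 their starts are 7315 bases apart on chromosome 14, Psmb5 on the minus and Psmb11 on the plus strand. The promoter of Psmb11, the member with the largest difference, is shown from 250 bases before to 50 after its start, chr14:54625060-54625359 on the plus strand, with its single CCAAT match in capitals. The letters CCAAT, searched on both strands, are in 37.4% of all 32851 such windows and in those of 15 of the 38 members that RefSeq's table held, so the match does not set Psmb11 apart.
Psmb11: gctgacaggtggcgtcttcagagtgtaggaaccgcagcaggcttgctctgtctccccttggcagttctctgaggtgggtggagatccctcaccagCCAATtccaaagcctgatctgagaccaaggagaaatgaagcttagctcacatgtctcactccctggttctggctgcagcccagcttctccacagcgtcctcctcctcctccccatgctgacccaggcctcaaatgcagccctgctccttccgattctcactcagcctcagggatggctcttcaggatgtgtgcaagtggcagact

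Of the interferon-induced catalytic subunits, Psmb9 and Psmb10 were higher in thymic cells and Psmb8 did not pass the test. Psmb9 read 4.34, 4.34 and 4.40 in thymic cells, against 3.64, 3.49 and 2.89 in thyroid cells. The groups did not overlap, and the difference was 1.02 ± 0.20 (SE; 2.03-fold, adjusted p 0.00348, limma). Psmb10 read 6.22, 6.26 and 6.40 in thymic and 5.60, 5.42 and 4.96 in thyroid cells. It was 0.97 ± 0.18 higher (SE; 1.96-fold, adjusted p 0.00274, limma), again without overlap. Psmb8 read 4.11, 3.91 and 4.17 in thymic and 4.29, 3.83 and 3.34 in thyroid cells. Its highest reading was thyroid replicate 1 and its lowest thyroid replicate 3, so the thyroid arrays enclosed all the thymic ones. The difference was 0.25, with a 95% interval of -0.33 to 0.82 (adjusted p 0.393, limma), which leaves room for a change as large as 1.77-fold. The second Psmb8 probe gave 0.26. Whether Psmb8 differed less than Psmb9 or Psmb10 was not tested. With the slide as a block the difference was 0.73 for Psmb9 (adjusted p 0.0480, limma), 0.69 for Psmb10 (adjusted p 0.0362, limma) and -0.22 for Psmb8. These values rest on the slide that held both groups, which has a single thyroid array, replicate 1. Without thyroid replicate 3, the lowest thyroid array for all 3 genes, the difference was 0.80 for Psmb9, 0.79 for Psmb10 and 0.01 for Psmb8. Centring on the median left Psmb9 at 0.50 and Psmb10 at 0.45, no longer past the threshold (adjusted p 0.0625 and 0.0655, limma). Relative to the median of all genes, Psmb9 stood 0.92 and Psmb10 0.87 higher, the same under either scaling by construction. These values were 0.90 and 1.02 with normexp background correction, and 1.36 and 1.25 with quantile normalization.

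**Figure D2:**
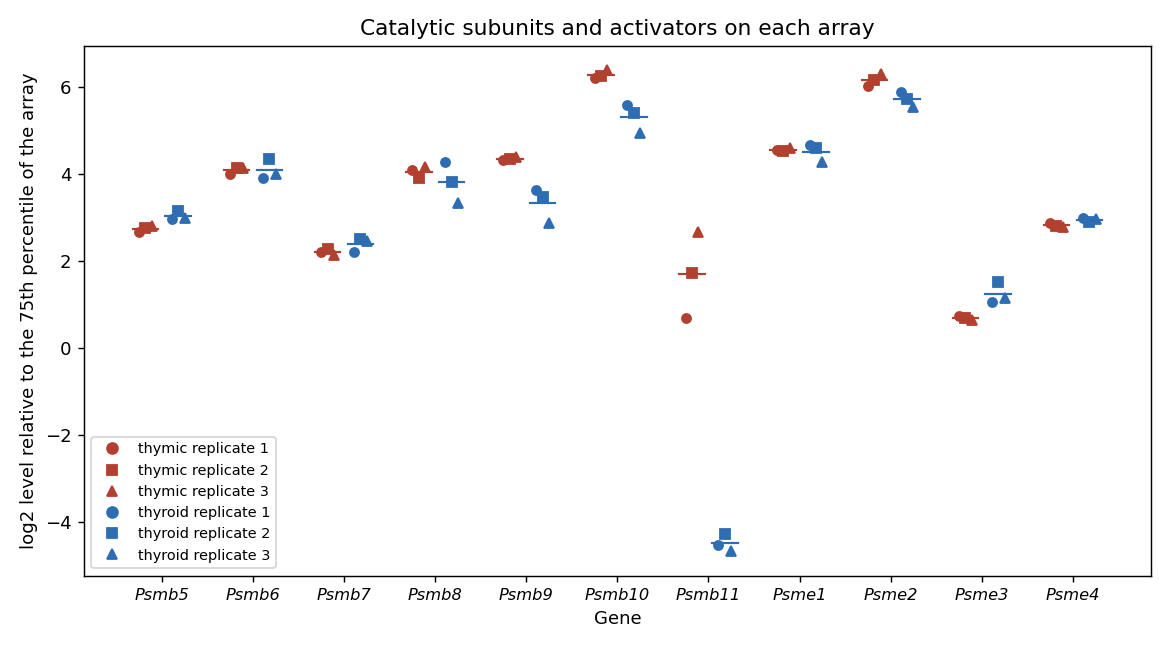
Level of each catalytic subunit and activator on each array, as log2 relative to the 75th percentile of the array; red marks are thymic, blue marks thyroid, the shape gives the replicate and the bar the group mean of 3. Psmb11 separates the groups by far, Psmb9 and Psmb10 by about 1, and the Psmb8 groups overlap.

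The exchanged subunits are related proteins, which bears on whether their probes can be told apart. The probes of Psmb5 and Psmb8, and of Psmb6 and Psmb9, were aligned with each other. Psmb7 with Psmb10 and Psmb5 with Psmb11 were not aligned. The aligned probes are shown 5′ to 3′ as the array files give them. Capitals mark the bases identical to the partner in the best alignment without gaps. For Psmb8 the second probe is shown, while its array values above come from its other probe. The Psmb5 probe (mm8 chr14:53568529-53568588, minus strand) and the second Psmb8 probe (mm8 chr17:33811038-33811097, plus strand) shared 31 of 50 aligned bases. The Psmb6 probe (mm8 chr11:70343707-70343766, plus strand) and the Psmb9 probe (mm8 chr17:33792517-33792576, minus strand) shared 27 of 48.
Psmb5: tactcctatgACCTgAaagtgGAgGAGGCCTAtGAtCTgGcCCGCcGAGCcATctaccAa
Psmb8: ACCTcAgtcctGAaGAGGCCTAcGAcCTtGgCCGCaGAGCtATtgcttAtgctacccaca
Psmb6: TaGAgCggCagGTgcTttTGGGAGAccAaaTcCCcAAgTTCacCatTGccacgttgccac
Psmb9: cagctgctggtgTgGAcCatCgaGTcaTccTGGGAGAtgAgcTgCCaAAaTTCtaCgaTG
The shared bases are scattered along both pairs, and every probe also holds bases that its partner lacks. Cross-hybridisation was not measured.

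Because each induced subunit takes the place of one constitutive subunit, the log2 ratio of the pair was taken within each array, where scaling by a constant cancels. Probes differ in brightness, so only the difference between groups is read. Constitutive Psmb5 read 2.69, 2.76 and 2.81 in thymic and 2.98, 3.16 and 3.00 in thyroid cells, a difference of -0.29 ± 0.11 (SE; adjusted p 0.0450, limma). That call was lost under quantile normalization (-0.03) and whenever an array other than thyroid replicate 1 was left out (adjusted p 0.0557 to 0.153, limma). Psmb6 read 4.02, 4.16 and 4.16 against 3.92, 4.36 and 4.02, and Psmb7 read 2.21, 2.29 and 2.15 against 2.21, 2.51 and 2.47. Neither of these passed, and their groups overlapped. The ratio of Psmb10 to Psmb7 was 1.15 higher in thymic cells, or 2.22-fold, with 4.01, 3.98 and 4.25 on thymic and 3.39, 2.91 and 2.49 on thyroid arrays. The ratio of Psmb9 to Psmb6 was 1.02 higher, or 2.02-fold, with 0.32, 0.19 and 0.25 against -0.29, -0.87 and -1.13. In both pairs the groups did not overlap. The ratio of Psmb11 to Psmb5 was 6.48 higher, or 89.1-fold, and 4.98 with normexp background correction. The ratio of Psmb8 to Psmb5 was 0.54 higher, or 1.45-fold, but thyroid replicate 1, at 1.31, lay among the thymic values of 1.15 to 1.42. With 3 against 3 arrays the exact permutation test (two-sided) can give no p below 0.1. It gave 0.1 for 3 of the 4 pairs (0.133 adjusted over the 4 pairs) and 0.2 for Psmb8 to Psmb5. On the shared slide the differences were 0.69 for Psmb10 to Psmb7, 0.54 for Psmb9 to Psmb6, 6.44 for Psmb11 to Psmb5 and 0.0035 for Psmb8 to Psmb5, each against 1 thyroid array.

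**Figure D3:**
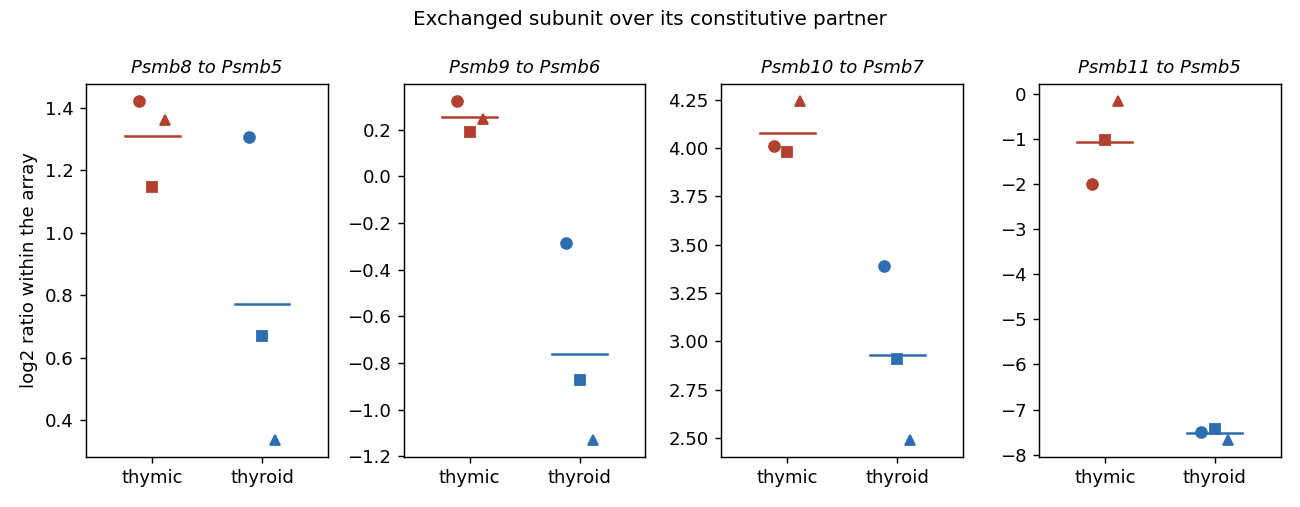
Log2 ratio of an exchanged subunit to the constitutive subunit whose place it takes, within each array; red marks are thymic, blue marks thyroid, the shape gives the replicate (circle 1, square 2, triangle 3) and the bar the group mean of 3. Vertical scales differ between panels and their positions also depend on the probes. Only for Psmb8 to Psmb5 do the groups overlap.

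Psmb8 and Psmb9 lie next to the peptide transporter genes Tap1 and Tap2 in the MHC region of chromosome 17. The promoters of Psmb9 and of Tap1, a subunit of the transporter that carries proteasome products into the endoplasmic reticulum, are a shared stretch: their starts are 226 bases apart on opposite strands. The Psmb9 window is chr17:34187281-34187580 on the minus strand of GRCm38.p6, from RefSeq's table, and the 275 bases in capitals are also in the Tap1 window.
Psmb9: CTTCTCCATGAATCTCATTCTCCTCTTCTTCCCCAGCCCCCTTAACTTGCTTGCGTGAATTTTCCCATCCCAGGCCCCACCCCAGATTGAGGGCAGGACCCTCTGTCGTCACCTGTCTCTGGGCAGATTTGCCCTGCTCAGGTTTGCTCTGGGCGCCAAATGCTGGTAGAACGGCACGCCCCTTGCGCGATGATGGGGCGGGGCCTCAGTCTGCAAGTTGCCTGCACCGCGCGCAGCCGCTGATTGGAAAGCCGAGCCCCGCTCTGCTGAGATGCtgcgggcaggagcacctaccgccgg
Of the genes on either side of this stretch, Psmb9 passed and Tap1 did not, with both differences toward thymic cells. Tap1 read 0.99, 1.27 and 0.51 in thymic and 0.97, 0.46 and -0.11 in thyroid cells, a difference of 0.49 ± 0.31 (SE; adjusted p 0.205, limma), with overlapping groups. Whether the difference of Psmb9 was larger than that of Tap1 was not tested.

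The Psmb8 window, chr17:34197945-34198244 on the plus strand, holds a gamma-activated site (TTCNNNGAA, the same on both strands), a kind of site known from interferon-gamma responses, here in capitals. Such letters are in 8.30% of all windows and, of the 38 matched members, in those of Psmb8 and Psmd2. The Psme1 window, chr14:55578244-55578543 on the plus strand, holds the core of an interferon-stimulated response element (GAAANNGAAA, searched on both strands), also in capitals. That core is in 3.44% of all windows and in those of 4 members, Psmb3, Psmd4, Psmd9 and Psme1. No member window held both, and a match is only a description of the letters. The table held 41 windows for the 38 members and listed none for Psma8, Psmb1, Psmb2, Psmb7, Psmc3, Psmd3 and Psmd7.
Psmb8: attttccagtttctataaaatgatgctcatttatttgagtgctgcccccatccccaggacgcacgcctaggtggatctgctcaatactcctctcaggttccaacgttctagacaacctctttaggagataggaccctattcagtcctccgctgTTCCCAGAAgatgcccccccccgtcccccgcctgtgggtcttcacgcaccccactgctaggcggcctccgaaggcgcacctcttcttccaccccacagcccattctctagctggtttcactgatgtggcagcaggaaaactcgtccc
Psme1: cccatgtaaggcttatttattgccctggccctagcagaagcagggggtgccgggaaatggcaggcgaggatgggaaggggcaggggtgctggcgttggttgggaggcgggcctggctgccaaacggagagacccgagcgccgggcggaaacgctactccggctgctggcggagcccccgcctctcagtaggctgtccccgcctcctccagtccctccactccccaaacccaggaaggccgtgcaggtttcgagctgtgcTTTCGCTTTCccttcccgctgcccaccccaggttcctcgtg
The antioxidant response element core (TGACNNNGC, both strands), the kind of site used by Nfe2l1 when proteasome activity is short, is in 12.4% of all windows and in those of 6 members: Psmb5, Psmb6, Psmc6, Psmd9, Psmd12 and Psme4. Of these 6, Psmb5 and Psmd9 were higher in thyroid cells and the others did not pass. That share is near the 30.5% of all genes higher in thyroid cells. The call of Psmb5 was lost under quantile normalization (-0.03), and a second Psmd9 probe gave -0.05.

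Of the activators, Psme2 was higher in thymic and Psme3 in thyroid cells. Psme1 and Psme2 together form the interferon-induced PA28 cap, which opens the core without ATP. Psme2 read 6.03, 6.16 and 6.31 in thymic and 5.89, 5.74 and 5.56 in thyroid cells, a difference of 0.44 ± 0.14 (SE; adjusted p 0.0240, limma) without overlap. The call was lost with the slide as a block (0.28), under median centring (-0.09), and without thymic replicate 2, thymic replicate 3 or thyroid replicate 3 (adjusted p 0.0655, 0.0872 and 0.0571, limma). Psme1 read 4.55, 4.53 and 4.60 in thymic and 4.67, 4.61 and 4.30 in thyroid cells, a difference of 0.04 with a 95% interval of -0.28 to 0.35. Psme3, the nuclear PA28 gamma that acts outside the interferon response, read 0.74, 0.71 and 0.66 against 1.07, 1.52 and 1.17. Its groups did not overlap, and it was -0.55 ± 0.14 (SE; adjusted p 0.0125, limma), or -0.36 with the slide as a block (adjusted p 0.128). Psme4, the PA200 cap, read 2.89, 2.81 and 2.79 against 3.00, 2.91 and 2.98 and did not pass (-0.13). Psmf1, which encodes the inhibitor PI31, was at 0.08 and did not pass.

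The interferon-induced members spread together among the thyroid arrays. This was seen after their values were known and has no test. Psmb8, Psmb9, Psmb10, Psme1 and Psme2 were all highest in thyroid replicate 1 and lowest in thyroid replicate 3, 5 of 5 genes. The same order was found in 20% of the 40 other members and in 18.5% of all genes tested. From the highest to the lowest thyroid array, Psmb8 spread by 0.95 (1.93-fold), Psmb9 by 0.75 and Psmb10 by 0.65, against a median of 0.25 over the other members and 0.41 over all genes. Psme1 (0.38) and Psme2 (0.33) spread less than the median of all genes, and Psma8, not among the 5, spread by 0.65. On the thymic arrays the same 5 genes spread by 0.06 to 0.27. Of 14 interferon signalling genes outside the family, 10 had the same order on the thyroid arrays, as had 3 of 4 genes of peptide transport. The 14 genes spread by a median of 0.33 on the thyroid arrays, below the 0.41 of all genes. The widest spread of the 14 was that of Irf7, an interferon-induced transcription factor, which read 2.70, 1.29 and 0.60 there. Thyroid replicate 1 was on the other slide from replicates 2 and 3, so slide and sample cannot be told apart in the step between them. Replicates 2 and 3 shared a slide, and replicate 3 was the lowest thyroid array for 37.9% of all genes. For the 5 members a fall from 2 to 3 is part of the order given above and no separate result. Psmb8 went from 3.83 to 3.34 and Psmb9 from 3.49 to 2.89. Psmb10 went from 5.42 to 4.96, Psme1 from 4.61 to 4.30 and Psme2 from 5.74 to 5.56. The cause of the spread was not tested.

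**Figure D4:**
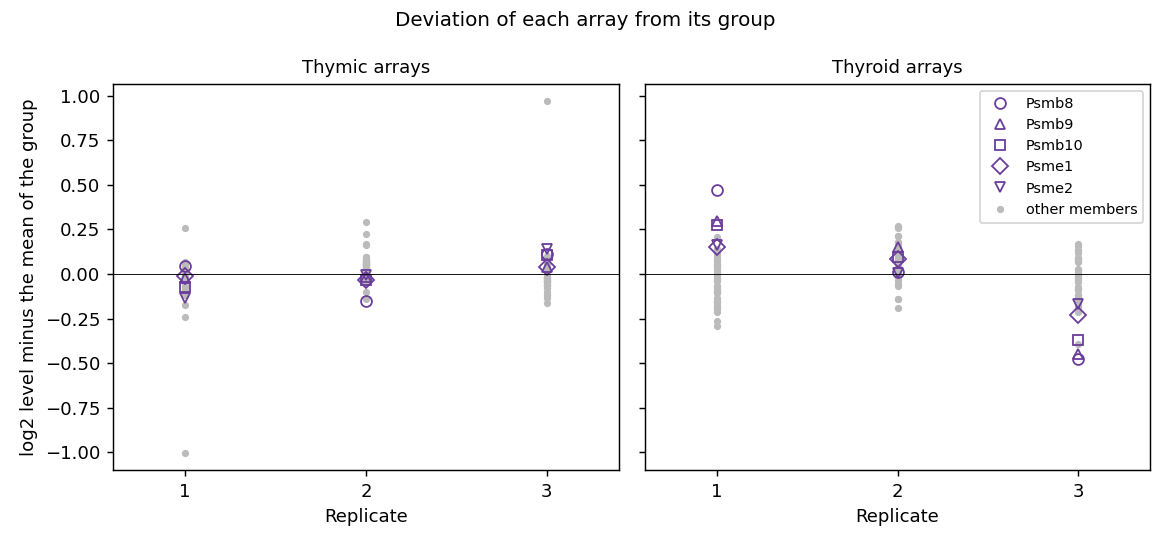
Deviation of each gene from the mean of its group on each array, on the log2 scale, with thymic arrays on the left and thyroid arrays on the right; purple open marks are the 5 interferon-induced members and grey points the 40 others. On the thyroid arrays the purple marks lie above 0 in replicate 1 and below 0 in replicate 3. The outlying grey points of the thymic arrays, near -1 and 1, are Psmb11.

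The constitutive core was close to equal. Of its 14 subunits, 2 were higher in thymic cells, 1 (Psmb5) in thyroid cells and 11 did not pass, with differences from -0.29 to 0.48 and a median of -0.03, against 0.10 over all genes. Psma4 read 2.61, 2.66 and 2.57 in thymic and 2.14, 2.07 and 2.21 in thyroid cells, a difference of 0.48 ± 0.10 (SE; 1.39-fold, adjusted p 0.00483, limma). A second Psma4 probe gave 0.52. Psma6 was 0.38 ± 0.11 higher in thymic cells (SE; adjusted p 0.0208, limma), also without overlap, a call lost without any 1 of the thymic replicates (adjusted p 0.0524 to 0.0770). Both encode subunits of the alpha ring, which forms the gate of the core, and both turned to -0.05 and -0.15 under median centring. The other 5 alpha subunits lay between -0.08 and 0.15. The 4 structural beta subunits without a proteolytic site, Psmb1 to Psmb4, lay between -0.17 and 0.06 by their brightest probes, and none passed. A second RefSeq probe of Psmb3 gave -0.38, without overlap, and passed on its own (adjusted p 0.0121, limma over probes).

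Of the 17 subunits of the 19S cap, 4 were higher in thyroid cells, none in thymic cells and 13 did not pass. That share was below the 30.5% of all genes that were higher in thyroid cells. The median of the cap was -0.20, and under quantile normalization the medians of the ATPase and non-ATPase subunits turned to 0.25 and 0.03. Psmc3, an ATPase of the unfolding ring, read 1.35, 1.57 and 1.30 in thymic and 2.37, 2.02 and 2.09 in thyroid cells. It was -0.76 ± 0.14 (SE; 1.69-fold, adjusted p 0.00268, limma), and the groups did not overlap. Psmc1, another ATPase of the ring, read 2.80, 2.88 and 2.81 against 3.49, 3.64 and 3.35, a difference of -0.66 ± 0.12 (SE; adjusted p 0.00196, limma). Psmd1, a large scaffold subunit that binds ubiquitin receptors, read 1.05, 1.08 and 0.82 against 1.80, 1.68 and 1.51, a difference of -0.68 ± 0.13 (SE; adjusted p 0.00317, limma). None of these 3 overlapped between groups, and all stayed higher in thyroid cells under all 6 ways of background correction and scaling, with the smallest value -0.39, for Psmc1 under quantile normalization. Psmd7, the partner of the deubiquitinase Psmd14, was -0.41 ± 0.12 by its brightest probe (SE; adjusted p 0.0181, limma), or -0.36 without thymic replicate 1 (adjusted p 0.0766). The call was also lost under quantile normalization (-0.19, adjusted p 0.170, limma) and with the median over its probes (-0.16). The other 4 ATPases lay between -0.12 and 0.23. The other 9 non-ATPase subunits lay between -0.34 and 0.09, and Psmd14 itself at 0.09 had overlapping groups.

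Of the chaperones that assemble the cap, 1 was higher in each cell type. Psmd10, also known as gankyrin, read 0.89, 0.97 and 0.96 in thymic and 0.33, 0.45 and 0.50 in thyroid cells, a difference of 0.51 ± 0.10 (SE; adjusted p 0.00380, limma) that was -0.01 under median centring. Psmd9 read -0.91, -0.88 and -0.85 against -0.51, -0.45 and -0.28, a difference of -0.47 ± 0.11 (SE; adjusted p 0.00764, limma). With the slide as a block it was -0.37 (adjusted p 0.0651, limma), a second Psmd9 probe gave -0.05, and the median over both probes was -0.26 and did not pass. Psmd5 was at -0.17 and did not pass. The chaperones of the core, Psmg1 to Psmg3, are filed under older names on this array and so were outside the rule. Of these, Psmg3 was 0.33 higher in thymic cells (adjusted p 0.0193, limma), a call lost without thymic replicate 1 or 3 and turned to -0.20 under median centring, while Psmg1 (-0.28) and Psmg2 (0.17) did not pass.

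Psma8, an alpha subunit used in place of Psma7 in germ cells, was the member with the largest difference toward thyroid cells. It read -4.80, -5.21 and -5.18 in thymic and -2.44, -2.31 and -2.96 in thyroid cells, low on all arrays. It was -2.49 ± 0.21 (SE; 5.62-fold, adjusted p 5.17e-05, limma), without overlap. The size depended on the processing: it was -1.18 (2.26-fold) with normexp background correction and -3.36 (10.2-fold) with quantile normalization, both past the threshold. The normexp correction included the added offset of 50 signal units, which by construction shrinks the differences of dim probes. Its single probe was designed on a cDNA clone and not on a RefSeq transcript, and no second probe could check it. Psmc3ip, which the name rule also takes, encodes a partner of meiotic recombination proteins and no part of the proteasome. It read -1.36, -0.89 and -1.10 against -2.17, -2.37 and -2.14, a difference of 1.11 ± 0.15 (SE; adjusted p 0.000563, limma), and its second probe gave 1.03.

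Probes of the same gene did not always give the same answer. Of 69 tested probes, 24 passed when each probe was fitted on its own, 14 of them thymic and 10 thyroid calls, against 68.7% of all probes. Among the 18 members with several tested probes, 8 had probes of opposite sign. Psmd7 alone had called probes of both signs. Its brightest probe, on a RefSeq transcript, gave -0.41, another RefSeq probe gave -0.16, and a probe on a cDNA clone read 0.54, 0.49 and 0.67 in thymic and -0.08, -0.06 and 0.20 in thyroid cells, a difference of 0.55 (adjusted p 0.00672, limma over probes). Psmd14 also had a clone-based probe with a large difference, 1.67, on which thymic arrays read -3.26, -3.79 and -2.97 and thyroid arrays -4.94, -5.01 and -5.08. Both of its RefSeq probes, at 0.09 and 0.20, did not pass. Of the 6 non-representative probes designed on clones, 3 were higher in thymic cells (Psmc2, Psmd7 and Psmd14) and 1 (Psmc6) in thyroid cells. What transcript each of these clone probes reads was not tested.

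Around the proteasome, 51 of 54 listed pathway genes were tested, with a median of -0.01. Of these 51, 9 were higher in thymic cells, 16 in thyroid cells and 26 did not pass. The background rate of passing, over all 21395 tested, was 69.8%, split into 39.3% toward thymic and 30.5% toward thyroid cells. The thyroid share of the pathway list was thus close to background, and its thymic share was below it. The interferon signalling genes went both ways, 4 of 14 in each direction. Irf8, a transcription factor of this pathway also known from myeloid and B cells, was 2.34 higher in thymic cells and the receptor chain Ifngr2 1.21. Irf1, an activator of immunoproteasome genes, read 5.03, 5.64 and 5.41 in thymic and 6.79, 6.81 and 6.20 in thyroid cells, a difference of -1.24 ± 0.23 (SE; adjusted p 0.00257, limma). Its groups did not overlap and ran opposite to those of Psmb9 and Psmb10. The receptor chains Ifnar2 (-1.62) and Ifngr1 (-0.87) were also higher in thyroid cells. Of 4 genes of peptide transport, only B2m, the light chain of MHC class I, passed, at 0.55, a call lost without any 1 of the thymic replicates. Of 16 further subunits, chaperones and partners, 2 were higher in thymic cells, the nuclear import factor Akirin2 (0.78) and the shuttle Rad23b (0.43). In thyroid cells 6 were higher, with the largest differences in the ubiquilin Ubqln4 (-1.04), the proteasome-activating Zfand5 (-1.01) and the ubiquilin Ubqln2 (-0.59). Among ubiquitin genes and ubiquitin-activating enzymes, the polyubiquitin gene Ubb (-0.53) was higher in thyroid cells, and none was higher in thymic cells. Nfe2l1, which drives subunit genes when proteasome activity is short, read 4.35 to 4.42 in thymic and 4.21 to 4.37 in thyroid cells and did not pass. Vcp (-0.63) and Ngly1 (-0.55), which process it, were higher in thyroid cells. Of 7 peptidases that trim or destroy proteasome products, Npepps (0.67) and Prep (0.42) were higher in thymic cells and Erap1 (-0.50) and Blmh (-0.47) in thyroid cells. The call of Blmh was lost without thymic replicate 1 or 3 or thyroid replicate 1 or 2. Median centring lost the calls of B2m, Rad23b, Npepps and Prep, and turned Rad23b to -0.09 and Prep to -0.10. With the median over the probes of a gene, the calls of Erap1 (-0.27), Rad23b (0.12) and B2m (0.38) were lost.

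How many small differences passed depended on the scaling. Centring on the array median, as in the deposited value table, lowered every difference by 0.52 and left 2 members higher in thymic cells, with 36 higher in thyroid cells. Of all 21395 genes, this centring called 6131 thymic and 10967 thyroid. Quantile normalization gave 13 thymic and 6 thyroid calls of members, beside 7294 and 7908 of all genes. Relative to the median of all genes, the median of the members was -0.18 with either constant scaling and 0.24 with quantile normalization, so no direction can be given for the proteasome as a whole. Under all 6 ways of correcting and scaling, Psmb11 and Psmc3ip were higher in thymic cells and Psma8, Psmc1, Psmc3, Psmd1, Psmd9 and Psme3 in thyroid cells, while Psmb8 never passed. Psmb9 and Psmb10 kept their sign in all of them.

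**Figure D5:**
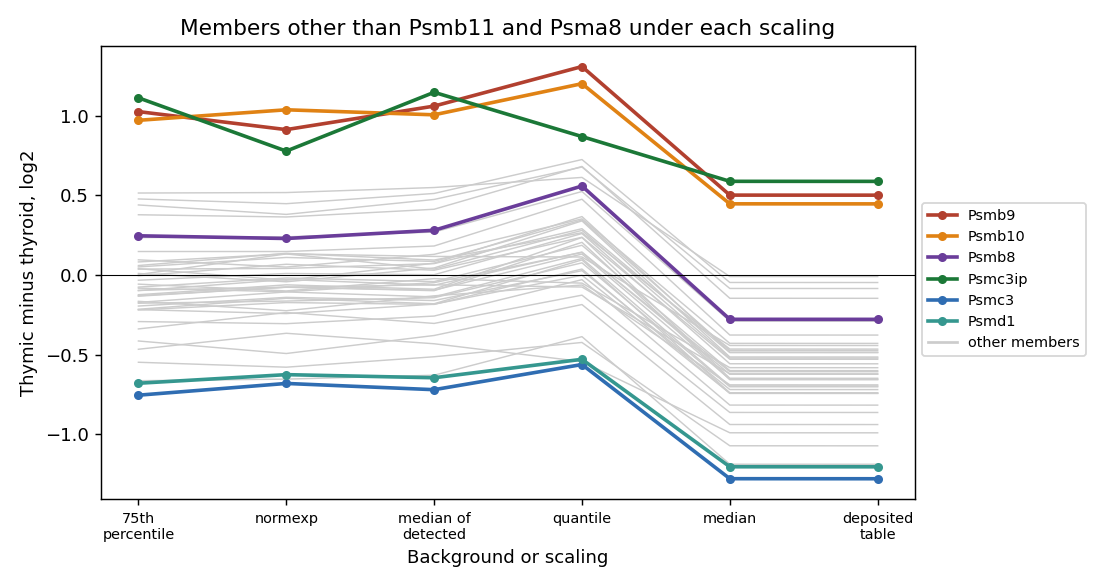
Thymic minus thyroid difference on the log2 scale of the 43 members other than Psmb11 and Psma8 under 6 ways of background correction and scaling; each line is a gene. The grey lines move together, by 0.52 between the 75th percentile and the median, while Psmb9, Psmb10 and Psmc3ip stay above 0 and Psmc3 and Psmd1 below 0 throughout.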

How the data were processed

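RNA of 3 thymic and 3 thyroid pools was extracted with Trizol, per the labels' protocols. The arrays were read with Agilent Feature Extraction 10.5.1.1, which gives each spot's background-subtracted brightness as an intensity and places probes on mm8, per the file headers. The deposited value table is a linear ratio: each column equals that signal divided by the array's median, and the scale and direction are thereby known. From the intensities, control spots were dropped, as were the 67 to 151 spots that each array flagged as outliers, log2 was taken, and each array's 75th percentile was subtracted. A probe was tested if every array of one group, or of both, flagged it as well above background, and a gene was represented by its brightest tested probe. Genes were named through a GRCm38.p6 table. The test was limma (version 3.58.1, under R 4.3.3; two-sided, no covariate), with p-values adjusted by Benjamini-Hochberg over all 21395 genes. The within-array ratios were compared with an exact permutation test. Same-numbered replicates of the groups did not deviate together (correlations of 0.007, -0.067 and -0.055), so numbers were not taken as pairs. The members, lists and named genes (all members by family, with array values for the catalytic subunits, activators, Psma8 and the 6 largest differences per direction, and up to 3 pathway genes per list and direction) were chosen with earlier results of these data known. The number of arrays limits the precision. The alternatives were the settings given in the closing section, with every tested probe as its own row added after seeing the data. The fit was run on simulated data with few changed genes and noise sized on the thymic arrays alone. The thyroid arrays spread more (a median range of 0.41 against 0.24 over all genes). Most genes passed in the data, so the simulation does not give the error rates here. Psmg4, Paaf1, Nlrc5 and Nrdc were not analysed here. Of the pathway genes that the naming rule takes, 2 are not reported here. Plots used matplotlib 3.10.9 and Python 3.11.15.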

Additional observations from a re-analysis of the deposited data

How the results depend on the processing

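With quantile normalization 13 members were higher in thymic cells in place of 8, and 16 pathway genes in place of 9. With median centring, and equally with the deposited value table, 2 members and 3 pathway genes were higher in thymic cells, and 36 members and 35 pathway genes in thyroid cells, in place of 8 and 16. These scalings subtract 0.52 more from every difference, which by construction turned Psmb6 to -0.52, Psme1 to -0.49, Psme2 to -0.085 (-0.086 with the table), Psma4 to -0.048 and Psmd10 to -0.010 (-0.011 with the table). With the slide as a block 5 members were higher in thyroid cells, and the group difference then rests on thyroid replicate 1 alone. Leaving out each replicate gave 6 to 8 members higher in thymic and 6 to 9 in thyroid cells, 8 to 9 and 14 to 19 pathway genes, and ratio differences of 0.32 to 0.81 for Psmb8 to Psmb5, 0.83 to 1.25 for Psmb9 to Psmb6, 0.93 to 1.38 for Psmb10 to Psmb7 and 6.02 to 6.94 for Psmb11 to Psmb5. With a replicate block the counts were 7 and 6. For the 19 genes given array by array, 287 of 342 values under the alternatives kept direction and side of the threshold. A further 16 changed sign without passing on either side (Psmb6, Psmb7, Psmb8, Psme1 and Psme4), 24 lost the call, 5 gained it, and the 10 given above reversed. The ratios use no fitted variance, so no block or variance model was run for them. Psmd8, at -0.34, was the largest difference of a member that did not pass.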
